A study of Cucumis sativus with 12 samples.

Results

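The genes described here are 3 cucumber (Cucumis sativus) genes annotated as dehydration-responsive element-binding (DREB) transcription factors: DREB1B-like (CsaV3_5G005890), DREB1A (CsaV3_3G016760) and DREB2A-like (CsaV3_4G026790). They were chosen by gene ID among the 24317 genes of the deposited expression table, and all 3 were among the 17497 genes abundant enough to be tested. Across the cold treatment the DREB1 genes were high at 3 h, near the bottom of the scale at 12 h and high again at 24 h, whereas DREB2A-like was higher at each later time.

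DREB proteins carry an AP2 DNA-binding domain and bind the C-repeat or dehydration-responsive element in the promoters of stress genes. In Arabidopsis, DREB1A and DREB1B, also called CBF3 and CBF1, are among the first genes switched on when leaves are chilled, and their transcripts are also gated by the circadian clock. Arabidopsis DREB2A is known mainly for drought, salt and heat, and its protein is kept low by ubiquitin-mediated degradation, so that its transcript level alone does not give its activity.

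Leaves came from seedlings of JinYan No. 4, an inbred cucumber line, grown in a phytotron with long days (28 °C by day, 18 °C by night). At the stage of 3 true leaves the seedlings were moved to a cold regime of equal day and night, 12 h each, with 15 °C by day and 6 °C by night. Leaves were taken before the move (0 h) and 3, 12 and 24 h into the cold. RNA-seq gave 3 libraries at each time, 12 in all, which the study calls biological replicates, and all samples are of this line, with no transgene or mutant. The 0 h leaves are the only control, so that across the times hours of cold, hour of the day, light period and seedling age cannot be told apart. By the stated times the 0 and 24 h leaves were 24 h apart and would share the hour of the day, but clock hours are not given. The sources used here do not give the temperature at the moment of sampling either.

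Expression was given as FPKM, the number of fragments of a gene relative to its length and to library depth, a level per length that can be set side by side between genes. The sum over genes was 561513 to 586297 FPKM in the 12 libraries, with 18678 to 19551 genes detected above 0. The sources used here hold no read numbers. Estimated from the steps between low values, depth was 0.912 to 1.28 times that of 0 h replicate 1, with 24 h replicate 3 the deepest. Log2 values of replicates correlated across genes at 0.983 to 0.990, and those of different times at 0.824 to 0.946. All 19 leaf mesophyll markers (Rubisco small chains and chlorophyll a-b binding proteins) were above 0 in every library, and markers of the root Casparian strip summed to at most 0.873 FPKM. Marker levels moved with time: the 19 mesophyll markers summed to 28088 to 32579 FPKM at 0 h, 29027 to 32850 at 3 h, 66282 to 80447 at 12 h and 38445 to 53983 at 24 h. The 11 epidermis and cuticle markers, all above 0 in every library, summed to 310 to 329, 627 to 695, 159 to 235 and 204 to 255 FPKM at these times. The phloem markers (7 of 14 genes above 0 in all libraries of each time) summed to 340 to 818 FPKM, and the xylem markers (12 of 19) to 10.8 to 20.6 FPKM. Their part in the results below was not tested, and in whole leaves fewer cells of a type and less RNA per cell cannot be told apart.

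DREB1B-like (CsaV3_5G005890) was close to silent before the cold treatment. In the 0 h libraries its level was 0.282 and 0.0411 FPKM in replicates 1 and 2, and it was listed at 0 in replicate 3. At 3 h it stood at 3.01, 3.71 and 2.16 FPKM, so that each 3 h library lay above every 0 h library. Of all tested genes, 67.9% had no overlap between 3 and 0 h, in either direction. It went back to 0.186, 0.0463 and 0.0668 FPKM at 12 h, within the range of the 0 h libraries. At 24 h it reached 4.04, 3.80 and 5.93 FPKM, the highest values of the series for this gene, and none of them overlapped the libraries of another time. The share of tested genes without overlap was 74.5% between 24 and 0 h and 69.8% between 24 and 3 h.

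DREB1A (CsaV3_3G016760) was the only one of the 3 genes to fall below its starting level. It had 0.924, 0.607 and 1.14 FPKM before the cold and 6.24, 5.85 and 5.39 FPKM after 3 h, with no overlap and little spread at 3 h. At 12 h it dropped to 0.115, 0.0811 and 0.0385 FPKM, all under the lowest 0 h library. The share of tested genes without overlap was 73.1% between 12 and 0 h and 71.8% between 12 and 3 h. The 24 h libraries were uneven, at 3.29, 2.92 and 8.37 FPKM. Replicate 3 was above every 3 h library and the other replicates were below every 3 h library, and without replicate 3 the 24 h mean moved from 4.86 to 3.11 FPKM.

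DREB2A-like (CsaV3_4G026790) had 1.59, 1.38 and 1.20 FPKM before the cold treatment. It reached 6.89, 8.56 and 7.81 FPKM after 3 h and 16.0, 12.0 and 14.2 FPKM after 12 h. After 24 h its level was 37.0, 43.2 and 48.1 FPKM. No library of a later time lay below a library of an earlier one, and between 12 and 24 h such a lack of overlap was seen for 56.5% of tested genes. In the ranking of all 24317 genes by mean level, DREB2A-like was at percentile 40.7 before the cold and at percentiles 62.1, 77.1 and 91.0 after 3, 12 and 24 h.

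**Figure D1:**
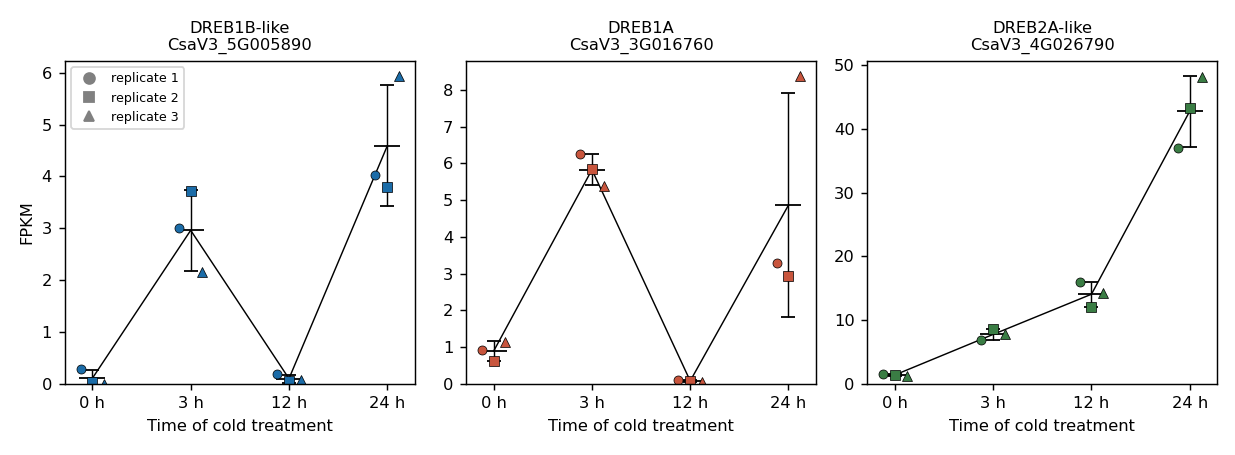
FPKM of DREB1B-like, DREB1A and DREB2A-like at 0, 3, 12 and 24 h of cold treatment, with 1 symbol per library (circle, square and triangle for replicates 1, 2 and 3), horizontal bars for the mean and error bars for the SD (n = 3). The times are spaced evenly and not to scale, and each panel has its own axis; both DREB1 genes return to near 0 at 12 h, while DREB2A-like climbs from a mean of 1.39 to 42.8 FPKM.

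DREB2A-like was the most abundant of the 3 genes at each time. At 0 h the means were 1.39 ± 0.196 FPKM (SD, n = 3) for DREB2A-like, 0.890 ± 0.268 for DREB1A and 0.108 ± 0.152 for DREB1B-like, with no overlap between neighbours in this order. At 3 h they were 7.75 ± 0.838, 5.83 ± 0.425 and 2.96 ± 0.778 FPKM, again without overlap. At 12 h DREB2A-like was at 14.1 ± 1.98 FPKM, while DREB1B-like (0.0998 ± 0.0757) and DREB1A (0.0780 ± 0.0381) overlapped. At 24 h DREB2A-like was at 42.8 ± 5.54 FPKM, and DREB1A (4.86 ± 3.04) and DREB1B-like (4.59 ± 1.17) overlapped.

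Changes between times were tested with limma on log2(FPKM + 0.5) over all 17497 tested genes, and calls required an adjusted p (Benjamini-Hochberg) below 0.05 and a log2 fold change past 1 in either direction. Adding 0.5 FPKM makes changes at low levels look smaller, as for the DREB1 genes at 0 and 12 h. With 3 libraries a group, the smallest p an exact permutation test can give is 0.1, and the adjusted p values therefore rest on a spread shared over libraries and genes. Over all tested genes the median log2 fold change was 0.03 after 3 h, -0.23 after 12 h and -0.17 after 24 h, against which the values of single genes can be read.

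After 3 h of cold treatment all 3 genes were upregulated, as were 9.89% of all tested genes. DREB1B-like changed by 2.51 on the log2 scale (SE 0.23, adjusted p = 1.99e-06, limma) and stood at place 313 from the top among the 17497 genes. DREB1A had 2.20 (SE 0.29, adjusted p = 4.58e-05, limma), at place 419, and its mean FPKM was 6.54 times that at 0 h. DREB2A-like had 2.13 (SE 0.13, adjusted p = 8.13e-08, limma), at place 450, and its mean FPKM was 5.59 times that at 0 h. No such ratio is given for DREB1B-like at 3 h, since its 0 h mean fell from 0.108 to 0.0206 FPKM without replicate 1.

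At 12 h the genes parted. DREB2A-like was higher than at 0 h, a call shared by 9.62% of tested genes, at 2.94 on the log2 scale (SE 0.13, adjusted p = 1.57e-09, limma) and a mean 10.1 times that at 0 h. DREB1A was lower, a call shared by 16.6% of tested genes, with -1.25 (SE 0.29, adjusted p = 0.00217, limma). With a pseudocount of 1 its value was -0.80, within the fold threshold. DREB1B-like had 0.0022 (SE 0.23, adjusted p = 0.995, limma), which was not called.

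Between 3 and 12 h the DREB1 genes fell. Both were called lower at 12 h than at 3 h, as were 15.3% of tested genes. DREB1A fell by 3.45 on the log2 scale (SE 0.29, adjusted p = 7.78e-07, limma), at place 106 from the bottom among 17497 genes. Its mean at 3 h was 74.7 times that at 12 h. The 12 h mean of 0.0780 FPKM ran from 0.0598 to 0.0978 FPKM with 1 library left out, so that this ratio is uncertain. DREB1B-like fell by 2.51 (SE 0.23, adjusted p = 1.40e-06, limma), at place 350 from the bottom. DREB2A-like moved the other way by 0.81 (SE 0.13, adjusted p = 0.000145, limma), within the fold threshold. It passed that threshold after the libraries were rescaled, at 1.11 by median ratio and 1.15 by quantiles. The summed epidermis and cuticle markers were above 0 h at 3 h and below it at 12 and 24 h, and their part in these changes was not tested.

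Between 12 and 24 h all 3 genes were upregulated, as were 8.46% of tested genes. DREB1A rose by 3.08 (SE 0.29, adjusted p = 4.58e-06, limma) and DREB1B-like by 3.07 (SE 0.23, adjusted p = 6.52e-07, limma), at places 142 and 145 from the top. DREB2A-like rose by 1.57 (SE 0.13, adjusted p = 1.43e-06, limma). With 24 h replicate 3 left out, the value of DREB1A was 2.64.

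Compared with 0 h, all 3 genes were higher at 24 h, a call made for 13.2% of tested genes. DREB2A-like had a log2 value of 4.52 (SE 0.13, adjusted p = 3.38e-11, limma). It held place 97 from the top, and its mean was 30.8 times that at 0 h. DREB1B-like had 3.07 (SE 0.23, adjusted p = 1.22e-07, limma), a value that ran from 2.32 to 4.71 over the alternatives. Its order against DREB2A-like depends on the scale, since its ratio of mean FPKM was 42.6, on a 0 h mean carried by replicate 1. DREB1A had 1.83 (SE 0.29, adjusted p = 0.000114, limma), which was 1.39 without 24 h replicate 3 and still called.

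Whether the 24 h level exceeded that at 3 h was answered differently for the genes. DREB2A-like was higher at 24 h than at 3 h by 2.39 (SE 0.13, adjusted p = 1.32e-08, limma), as were 7.85% of tested genes. DREB1B-like had 0.56 (SE 0.23, adjusted p = 0.048, limma), within the fold threshold, and this adjusted p ran from 0.00335 to 0.249 over the alternatives. DREB1A had -0.38 (SE 0.29, adjusted p = 0.273, limma). It had -0.81 (adjusted p = 0.00206, limma) without 24 h replicate 3, also within the fold threshold.

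**Figure D2:**
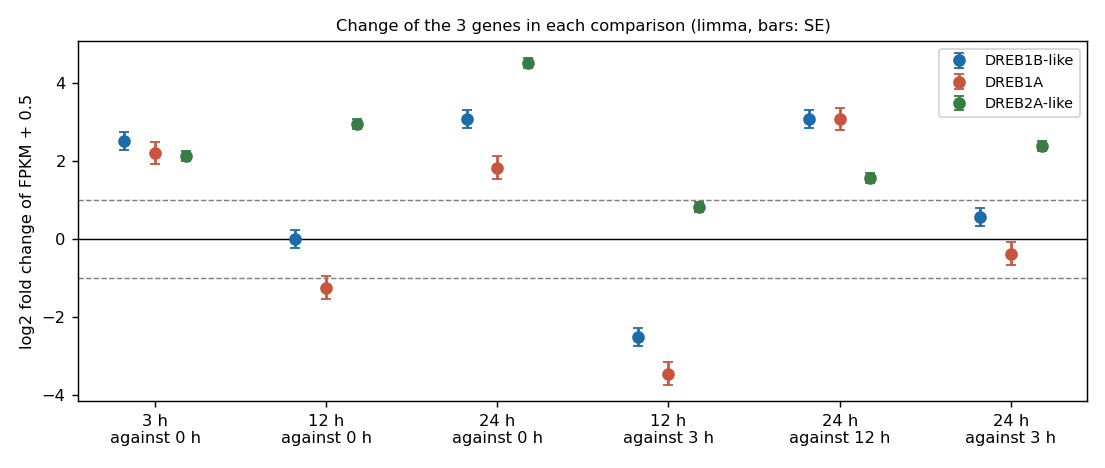
Log2 fold change of FPKM + 0.5 of the 3 genes in each of the 6 comparisons between times, with bars for the SE from limma and dashed lines at 1 and -1, the fold threshold. The DREB1 genes lie below -2 for 12 h against 3 h and at about 3 for 24 h against 12 h, while DREB2A-like lies above 0 in all 6.

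The deposited annotation describes 12 genes as DREB-type factors, the 3 above and 9 others, and their balance changed during the treatment. Their summed level was 26.6 to 27.8 FPKM in the 0 h libraries and 67.5 to 72.6 FPKM in the 3 h libraries. It was 62.6 to 80.1 FPKM at 12 h and 133 to 178 FPKM at 24 h. DREB2A-like took 5.12 ± 0.717% of this sum (SD, n = 3) before the cold, then 11.1 ± 0.934%, 20.1 ± 0.985% and 28.2 ± 1.55% after 3, 12 and 24 h. DREB1A took 3.30 ± 1.05, 8.39 ± 0.644, 0.110 ± 0.0461 and 3.07 ± 1.43% at these times. DREB1B-like took 0.399 ± 0.567, 4.24 ± 0.969, 0.135 ± 0.0853 and 3.00 ± 0.348%, and its 0 h share was 0 to 1.05% over the libraries, with replicate 1 the highest. Without 12 h replicate 1 the 12 h mean of DREB1B-like moved from 0.0998 to 0.0565 FPKM.

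Of the 9 other DREB-type genes 3 passed the filter on low values. Of these, 2 were called higher at each later time than at 0 h, and none was called lower. Over all tested genes 9.89, 9.62 and 13.2% were called higher at 3, 12 and 24 h, and 5.39, 16.6 and 18.1% lower. The 6 DREB-type genes that did not pass the filter never exceeded 0.454 FPKM. Among them DREB1E (CsaV3_5G003250), the remaining gene described as DREB1, reached at most 0.365 FPKM, and the DREB2D-like gene CsaV3_3G045550 was listed at 0 in all 12 libraries.

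A second gene described as DREB2A-like, CsaV3_4G026910, followed CsaV3_4G026790 closely. It had 2.49, 2.65 and 2.25 FPKM before the cold and 8.77, 10.9 and 10.2 FPKM after 3 h. Its level then reached 20.5, 16.7 and 18.2 FPKM after 12 h, and 43.1, 50.5 and 54.8 FPKM after 24 h. No times overlapped, and over the pairs of times 56.5 to 74.5% of all tested genes had no overlap. Its log2 fold changes against 0 h were 1.82, 2.68 and 4.07 (SE 0.11 each, highest adjusted p = 8.83e-08, limma). Over the 12 libraries the log2 values of the 2 genes had a Pearson r of 0.999 and a Spearman rho of 0.993, given as a description, since the libraries form 4 groups by time. The level of CsaV3_4G026910 was 1.79 ± 0.194 times that of CsaV3_4G026790 before the cold (SD, n = 3), and 1.29 ± 0.0172, 1.32 ± 0.0606 and 1.16 ± 0.0160 times after 3, 12 and 24 h. The sources used here do not say how reads mapping to both genes were treated, and their sequences were not compared here, so that the separate values of these genes are uncertain.

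The third tested gene described as DREB2A-like, CsaV3_6G012590, did not follow this course. It had 14.6, 16.1 and 15.5 FPKM before the cold and 12.5, 14.3 and 12.1 FPKM after 3 h. After 12 h it had 11.7, 9.35 and 9.72 FPKM, and after 24 h 12.7, 10.9 and 12.1 FPKM. These levels were below 0 h at each later time, but its log2 fold changes of -0.24, -0.57 and -0.36 lay within the fold threshold (adjusted p = 0.0524, 0.000226 and 0.00576, limma). It was the most abundant of the 3 genes with this description at 0 h and the least abundant at 24 h.

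DREB2C (CsaV3_6G002010), described after an Arabidopsis relative of DREB2A, rose early and then stayed up. It had 6.88, 6.67 and 6.04 FPKM before the cold and 30.3, 28.6 and 29.6 FPKM after 3 h. It kept 31.2, 24.1 and 24.9 FPKM at 12 h, where the DREB1 genes were near 0, and 33.1, 32.4 and 48.4 FPKM at 24 h. Its log2 fold changes against 0 h were 2.10, 1.95 and 2.43 (SE 0.14 each, highest adjusted p = 1.60e-07, limma), and from 3 to 12 h it was not called (-0.15, adjusted p = 0.361, limma).

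**Figure D3:**
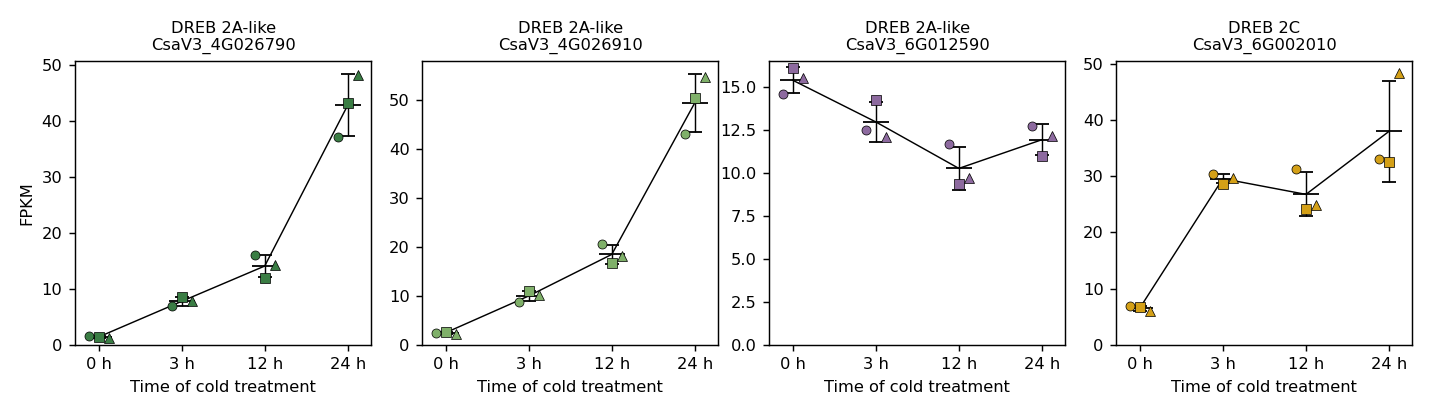
FPKM of the 4 tested genes described as DREB2A-like or DREB2C at 0, 3, 12 and 24 h, with 1 symbol per library (circle, square and triangle for replicates 1, 2 and 3), horizontal bars for the mean and error bars for the SD (n = 3). Times are spaced evenly and each panel has its own axis; CsaV3_4G026790 and CsaV3_4G026910 climb together to means of 42.8 and 49.4 FPKM, CsaV3_6G012590 goes from 15.4 to 11.9 and CsaV3_6G002010 is already at 29.5 at 3 h.

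The 5 genes most like each of the 3 were taken by Pearson correlation of log2(FPKM + 0.5) over the 12 libraries, among tested genes with a description and a mean of at least 1 FPKM. The libraries fall into 4 groups by time, so that r mostly measures likeness of the time course. For DREB1B-like r was 0.983 to 0.984. The named genes were a palmitoyl-acyl carrier protein thioesterase (CsaV3_1G030920), ethylene-responsive transcription factor 2 (ERF2, CsaV3_3G002460) and a pectinesterase (CsaV3_6G023840), a cell wall enzyme. ERF2, also an AP2-type factor, had means of 6.16, 34.3, 5.07 and 72.6 FPKM at 0, 3, 12 and 24 h, well above those of DREB1B-like at each time. The remaining pair, CsaV3_6G032080 and CsaV3_1G004720, have no functional description.

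For DREB1A r was 0.976 to 0.982. The genes with a function in their description were an ankyrin repeat-containing protein (CsaV3_3G023710; 1.68, 4.48, 0.958 and 3.49 FPKM) and auxin response factor 9 (CsaV3_4G006770; 15.4, 25.1, 10.6 and 23.7 FPKM), with uncharacterized CsaV3_1G029520, CsaV3_1G003970 and CsaV3_6G005540 beside them. Like DREB1A, the first pair had their lowest means at 12 h, below 0 h. For DREB2A-like r was 0.992 to 0.999. After CsaV3_4G026910 came homeobox protein knotted-1-like 7 (CsaV3_5G003340; 10.7, 21.0, 30.4 and 50.3 FPKM), uncharacterized CsaV3_3G049850 and CsaV3_3G041470, and a dnaJ protein homolog (CsaV3_1G044020; 29.4, 95.4, 166 and 309 FPKM), a type of co-chaperone of heat shock protein 70. When the 5 nearest genes were taken by Spearman's rho instead, 0 of them were shared for DREB1B-like, 2 for DREB1A and 2 for DREB2A-like, so that these names depend on the measure.

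**Figure D4:**
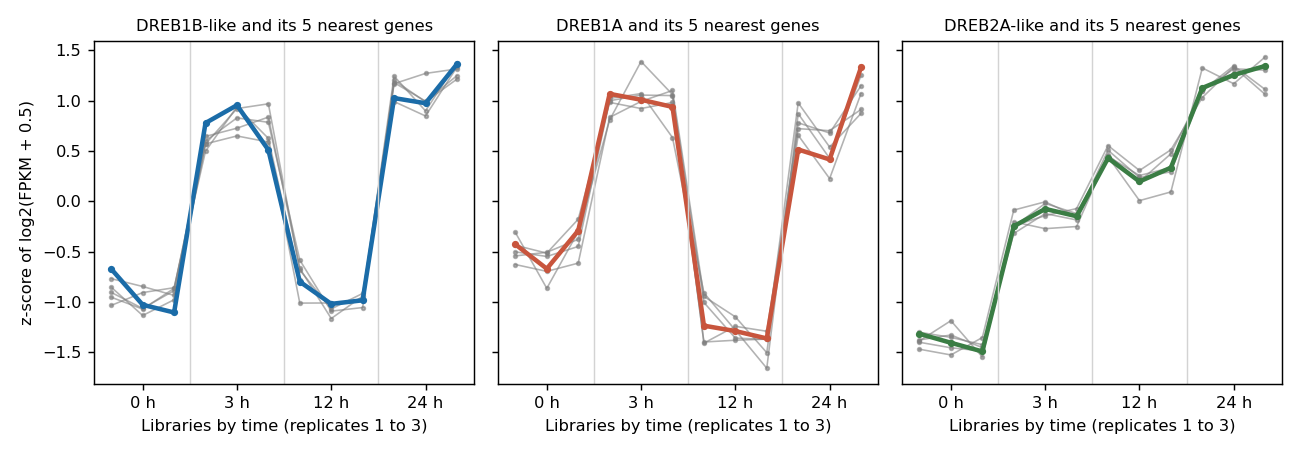
Log2(FPKM + 0.5) of DREB1B-like, DREB1A and DREB2A-like (thick lines) and of the 5 genes nearest to each by Pearson correlation (thin lines), as z-scores over the 12 libraries, in the order of time and replicate. The libraries of a time lie together, and DREB1A with its neighbours is lowest at 12 h, below 0 h.

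In Arabidopsis, DREB1 transcription is driven or repressed by ICE1, CAMTA factors, clock proteins (LHY, CCA1, REVEILLE and pseudo-response regulators), PIF factors, EIN3 and MYB15, with SnRK2 and MAP kinases acting on some of these. Of 49 genes described as such regulators 40 were tested, and 2 were higher and 2 lower at 3 h (9.89% and 5.39% of all tested genes), when the DREB1 genes first rose. At 12 h 8 were higher and 12 lower (9.62% and 16.6% of all tested genes), and at 24 h 7 were higher and 9 lower (13.2% and 18.1%). Their median log2 fold change was 0.08, -0.47 and -0.47, beside 0.03, -0.23 and -0.17 over all tested genes.

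A mitogen-activated protein kinase 3-like gene (CsaV3_1G033530) had the largest change among these regulators at 3 h. It had 27.0, 22.7 and 30.7 FPKM before the cold and 310, 386 and 355 FPKM after 3 h. After 12 h it had 80.4, 62.4 and 55.6 FPKM, and after 24 h 687, 526 and 780 FPKM. Like the DREB1 genes it was high at 3 and 24 h, but at 12 h it stayed above 0 h, with log2 fold changes of 3.69, 1.28 and 4.60 (SE 0.17 each, highest adjusted p = 2.56e-05, limma).

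Genes of the clock followed other courses. REVEILLE 1-like (CsaV3_5G020580) was lower at 3 and 12 h, by -1.72 and -2.42, and an LHY-like gene (CsaV3_6G008360) went from a mean of 667 FPKM at 0 h to 560, 236 and 157, lower by 2.09 on the log2 scale at 24 h (SE 0.07, adjusted p = 6.14e-11, limma). The pseudo-response regulators APRR7 (CsaV3_4G024430) and APRR3 (CsaV3_5G000090) were higher at 12 h by 4.66 and 6.73, and APRR3 stood at 342 FPKM at 24 h against 2.92 at 0 h. The other gene described as APRR7 (CsaV3_5G000530) went the other way, from a mean of 53.3 FPKM at 0 h to 33.6 at 24 h. Its 12 h libraries had 39.9, 20.5 and 23.5 FPKM. It was not called at 12 h, but without 12 h replicate 1 it was called lower (-1.26). The 0 and 24 h leaves were a day apart, and LHY-like and APRR3 differed between them, as did the 3 DREB genes. The part of the clock in the DREB changes was not tested.

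ICE1, the activator of DREB1A in Arabidopsis, was looked at for its role and after its values were seen. The gene described as ICE1 (CsaV3_3G027730) had means of 27.8, 43.7, 9.44 and 9.67 FPKM, and a gene described as ICE1-like (CsaV3_1G009900) had 9.14, 15.0 and 31.1 FPKM at 0, 3 and 12 h and 17.6, 20.7 and 18.6 FPKM in the 24 h libraries. ICE1 was lower at 12 and 24 h (-1.51 and -1.48, SE 0.10, highest adjusted p = 5.14e-08, limma), and ICE1-like was higher at 12 h (1.71, SE 0.08, adjusted p = 2.46e-09, limma) and at 24 h (1.01, SE 0.08, adjusted p = 2.07e-07, limma). The latter call ended with a pseudocount of 1 and without 0 h replicate 1 or 24 h replicate 2. Neither repeated the course of the DREB1 genes, and from 12 to 24 h ICE1 moved by 0.04 (adjusted p = 0.789, limma). SRK2G-like (CsaV3_4G030060), of the SnRK2 kinases, was lower at 3 and 12 h by -1.65 and -2.57, and SRK2E-like (CsaV3_2G014200) was lower at 24 h by -2.13. The more abundant gene described as SRK2E (CsaV3_7G008840) had means of 11.5, 12.7, 8.19 and 11.6 FPKM at 0, 3, 12 and 24 h.

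Transcription factors that in Arabidopsis rise in the first wave beside DREB1 include ZAT zinc fingers, HSFC1, WRKY and MYB44 types and ERF5 and ERF6. Of 25 genes of this kind 22 were tested, and 13 were higher and 1 lower at 3 h, 5 higher and 2 lower at 12 h, and 16 higher and 2 lower at 24 h. Of all tested genes, the shares higher were 9.89, 9.62 and 13.2% and the shares lower 5.39, 16.6 and 18.1% at the 3 times. The median log2 fold change of the group was 1.67, 0.34 and 2.09, beside 0.03, -0.23 and -0.17 over all tested genes. ERF6 (CsaV3_3G002470) had means of 4.31, 103, 18.0 and 335 FPKM and log2 fold changes of 4.46, 1.92 and 6.16 (SE 0.24 each, highest adjusted p = 1.72e-05, limma). ZAT10-like (CsaV3_2G026210) had means of 12.4, 293, 15.3 and 222 FPKM, back near its 0 h level at 12 h as DREB1B-like was. ZAT5-like (CsaV3_3G036200) was higher at 3 h by 1.52, at low means of 0.195 FPKM at 0 h and 1.47 FPKM at 3 h.

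Other genes of this group ran differently. HSFC1 (CsaV3_2G002270) was lower at each time, with -1.12, -2.11 and -3.38, whereas HSFC1-like (CsaV3_1G024170) was higher at 12 h by 3.46. A MYB44-like gene (CsaV3_2G028170) was higher at 24 h by 5.13, and another (CsaV3_2G035520) was lower at 12 h by -1.55. WRKY40 (CsaV3_4G036610) was lower at 24 h, with -1.17, or -0.99 after median-ratio rescaling. A gene described as WRKY40-like (CsaV3_2G032460) went the other way, with means of 4.78, 18.7, 8.14 and 16.0 FPKM at 0, 3, 12 and 24 h. Its 3 h libraries were uneven, at 9.87, 34.7 and 11.7 FPKM.

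Genes of the types that Arabidopsis DREB1 proteins act on, namely cold-regulated and low-temperature-induced proteins, dehydrins and galactinol synthases, were counted among 11 tested genes. Of these 5 were higher and 0 lower at 3 h (0 also at an unadjusted p under 0.05 by limma with the same fold threshold), 2 were higher and 2 lower at 12 h, and 4 were higher and 1 lower at 24 h. Over all tested genes the shares called higher were 9.89, 9.62 and 13.2% and those called lower 5.39, 16.6 and 18.1%, so that the 2 of 11 lower at 12 h are near the background. The median log2 fold change of the group was 0.78, -0.13 and 0.57, beside 0.03, -0.23 and -0.17. A dehydrin DHN1-like gene (CsaV3_4G005460), which encodes a hydrophilic protein of dehydrated and chilled tissue, had 3.67, 6.91 and 5.29 FPKM before the cold and 49.2, 63.6 and 61.9 FPKM after 3 h. It dropped to 2.95, 0.618 and 1.53 FPKM after 12 h and reached 224, 124 and 366 FPKM after 24 h. As for DREB1A, the 12 h libraries were all below those of 0 h, and 24 h replicate 3 was the highest library. Its log2 fold changes against 0 h were 3.37, -1.51 and 5.27 (SE 0.44 each, highest adjusted p = 0.0103, limma).

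Galactinol synthase 2-like (CsaV3_1G015730), of the raffinose pathway, had 2.82, 3.39 and 2.71 FPKM before the cold and 56.3, 60.4 and 49.2 FPKM after 3 h. It had 7.42, 1.90 and 2.78 FPKM after 12 h, and 47.9, 24.3 and 94.2 FPKM after 24 h. Its 12 h libraries overlapped those of 0 h, unlike those of the dehydrin, and replicate 3 was the highest at 24 h. A galactinol synthase 1-like gene (CsaV3_3G031720) was higher at 3 h by 3.42 and was not called at 24 h, while another (CsaV3_5G031520) was higher at 3, 12 and 24 h by 2.56, 4.09 and 2.28. A low-temperature-induced cysteine proteinase (CsaV3_4G034650), a protease by its description, was higher at all times, with its highest value of 3.73 at 12 h. The other gene with this description (CsaV3_7G008340) stayed near its 0 h level. It had means of 12.7, 12.4 and 11.6 FPKM at 0, 3 and 12 h, and 9.90, 11.1 and 12.1 FPKM in the 24 h libraries. Lower genes were the 65 kDa low-temperature-induced protein (CsaV3_3G049950) at 24 h, with -1.48, and COR413 plasma membrane protein 2-like (CsaV3_6G042690) at 12 h, with -1.04. That call ended with a pseudocount of 1, after either rescaling, and without 0 h replicate 1, 0 h replicate 3 or 12 h replicate 2. Its means were low, at 0.734 FPKM at 0 h and 0.101 FPKM at 12 h. The more abundant COR413 plasma membrane protein 2 (CsaV3_2G014340) had means of 40.8, 55.7, 24.7 and 61.0 FPKM at 0, 3, 12 and 24 h and was not called against 0 h.

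Genes that act around DREB2A in Arabidopsis were counted in the same way. Of 8 tested genes (DRIP ubiquitin ligases and BPM adaptors that lead DREB2A protein to degradation, its partner RCD1, and its target HSFA3) 0 were called at 3 h (0 also at an unadjusted p under 0.05 by limma with the same fold threshold), 1 was lower at 12 h, and 1 was higher and 1 lower at 24 h, with medians of 0.11, -0.21 and 0.24 on the log2 scale. Of all tested genes 16.6% were lower at 12 h, and 13.2% were higher and 18.1% lower at 24 h, so that these counts are near or under the background. DRIP2-like (CsaV3_2G013690) had means of 5.58 FPKM at 0 h, 2.54 at 12 h and 1.74 at 24 h, with log2 fold changes of -1.01 and -1.45 at the later times, and the call at 12 h ended after either rescaling (-0.78 by median ratio), with a pseudocount of 1 (-0.90), and without 0 h replicate 2, 12 h replicate 2 or 12 h replicate 3. The other gene described as DRIP2-like (CsaV3_2G004020) went the other way, with means of 2.42, 2.38, 2.84 and 4.91 FPKM at 0, 3, 12 and 24 h. It was not called, but at 24 h it was called higher after median-ratio rescaling (1.06) and quantile normalization (1.03). HSFA3 (CsaV3_3G036820) had 1.07 at 24 h. Its call ended with a pseudocount of 1 (0.93), without 0 h replicate 1 (0.98) and without 24 h replicate 3 (0.84). DREB2A-like itself had 4.52 at that time.

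**Figure D5:**
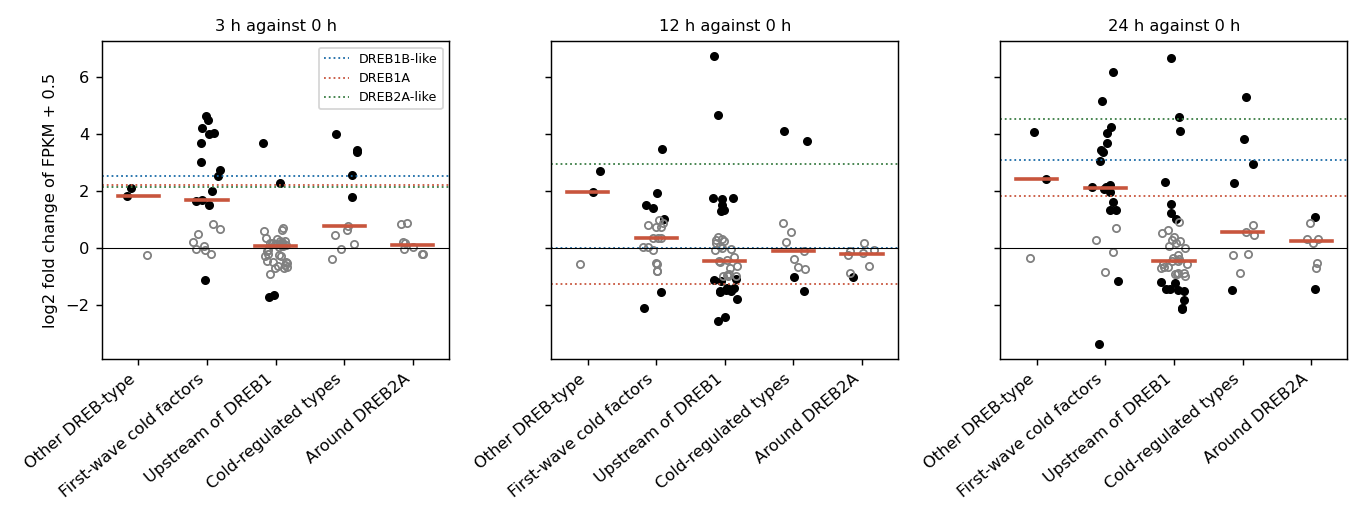
Log2 fold change of FPKM + 0.5 against 0 h of the tested genes in 5 groups around the DREB factors at 3, 12 and 24 h, with filled points for called genes, open points for genes not called, red bars for the group medians and dotted lines for DREB1B-like, DREB1A and DREB2A-like. The first-wave factors have medians of 1.67, 0.34 and 2.09, and at 24 h DREB2A-like lies at 4.52 above all genes around DREB2A.

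The 3 genes share 4 Gene Ontology terms in the deposited annotation (DNA binding, its transcription factor activity, the transcription factor complex, and regulation of transcription). Exactly these terms and no others are carried by 148 genes, 91 of them tested, and genes with further terms were not counted. Of these 91 genes 36 were higher and 4 lower at 3 h, 24 higher and 12 lower at 12 h, and 41 higher and 11 lower at 24 h. Their median log2 fold changes were 0.55, 0.20 and 0.67. Among all tested genes 9.89, 9.62 and 13.2% were higher and 5.39, 16.6 and 18.1% lower at these times, with medians of 0.03, -0.23 and -0.17. Ranked by log2 fold change among the 91, DREB1B-like, DREB1A and DREB2A-like held places 12, 15 and 17 at 3 h. At 12 h their places were 52, 81 and 4, and at 24 h they were 14, 29 and 4.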

How the data were processed

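Leaf RNA-seq libraries of 4 times of cold treatment, 3 per time, were used. The authors trimmed the reads (cutadapt 1.9 and FastQC in the submitters' processing notes), aligned them to the Chinese Long V3 cucumber genome by HISAT2 and deposited FPKM for 24317 genes. The sources used here do not name the program that computed FPKM or say whether strand was used. Columns with the authors' own fold changes, p-values and q-values, and the tables of pairs of times, were not used. A deposited value of 0.0001 was read as 0.

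The 17497 genes that reached 0.5 FPKM in 3 or more libraries were fitted as log2(FPKM + 0.5) with limma 3.58.1 in R 4.3.3 (robust eBayes with a trend), in 1 fit of the 12 libraries and without a replicate block. Python 3.11.15, pandas 2.3.3 and scipy 1.17.1 were used for summaries. The steps were tested on simulated data. Alternatives were a pseudocount of 0.1 or 1, no filter or 1 FPKM, median-ratio rescaling, quantile normalization, only the 6 libraries of a comparison, a replicate block, and each library left out.

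The 3 genes and the gene lists, matched to the deposited descriptions, were chosen with earlier results of these data known, so that no list is independent support. Named genes were all tested DREB-type genes and the 5 nearest genes of each DREB gene. Also named were the 2 highest and 2 lowest called genes, at each time, of each list other than the cell type markers. The ICE1 genes were added after their values were seen. So were further genes described as DRIP2-like, APRR7, WRKY40-like, SRK2E, low-temperature-induced cysteine proteinase and COR413 plasma membrane protein 2. Replicate origin beyond "biological" is not given, so that p-values measure the spread between these libraries. Depth as read numbers is unknown. Gene coordinates and sequences were not used here.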

Additional observations from a re-analysis of the deposited data

Results flagged for a closer look

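For each of the 3 genes the change against 0 h differed between later times, by the limma test of the later times against each other. The change of DREB1B-like at 12 h minus that at 3 h was -2.51 on the log2 scale, and that at 24 h minus that at 12 h was 3.07. For DREB1A these differences were -3.45 and 3.08. For DREB2A-like the change at 24 h exceeded that at 12 h by 1.57 and that at 3 h by 2.39. Groups of 3 libraries are too small for the check on single libraries, so that 24 h replicate 3 of DREB1A (8.37 FPKM beside 3.29 and 2.92) was not tested as apart.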

How the results depend on the processing

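Over 20 alternative settings and 18 results (3 genes in 6 comparisons), 357 of 360 values kept their call. DREB1B-like at 12 h against 0 h, not called in any setting, lay between -0.12 and 0.20 and so changed sign. The exceptions were DREB1A at 12 h against 0 h, at -0.80 with a pseudocount of 1, which left 1 gene called in that comparison in place of 2, and DREB2A-like at 12 h against 3 h, past the threshold at 1.11 with median-ratio rescaling and 1.15 with quantile normalization. Median-ratio rescaling moved the median log2 fold change of all genes from -0.23 to -0.01 at 12 h and from -0.17 to 0.01 at 24 h. The split of calls moved from 1684 higher and 2912 lower to 2307 and 1973 at 12 h, and from 2315 and 3159 to 2794 and 2427 at 24 h (quantile normalization: 2144 and 2113, 2559 and 2703). Leaving out 1 library gave DREB1A at 24 h against 0 h 1.39 to 2.08, and no call of the 3 genes ended. The replicate block changed no call of the 3 genes (DREB1A at 24 h against 0 h 1.83, adjusted p = 0.000167, limma). Same-numbered libraries of different times correlated at -0.16 to 0.16 in their deviations, so that the numbers were not taken as pairs. Of 60 counts over the gene lists, at most 8 moved by over 1.5 times in a setting, and these were small counts: genes around DREB2A went to 0 lower at 12 h and to 0 or 2 higher at 24 h, and cold-regulated types to 1 lower at 12 h and 2 at 24 h. The other genes checked were 98, from the lists around the DREB factors and the nearest genes of the 3. Of their 294 values against 0 h, 33 changed call in at least 1 setting and 0 changed sign while called.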
